A study of Mus musculus with 3 samples.

Results

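The wells described here are single heart cells of 2 libraries, set against each other by their level of Ino80: day 2 wells with at least 1000 CPM of Ino80 and day 3 wells with less than 100 CPM. CPM is the usual scaled read count, here relative to the total of nuclear-encoded mouse genes. Wells entered with at least 1000 counts and 300 detected genes, and wells with at least 1000 CPM of the macrophage genes Lyz2, C1qa, C1qb and C1qc together, or of the fibroblast genes Dcn, Col1a1, Col3a1 and Lum together, were dropped. This left 817 day 2 Ino80-high wells and 458 day 3 Ino80-low wells, 1275 of the 2151 wells of both days that passed the limits on counts and genes, and of 3394 wells in all 3 libraries of the series. The day 3 Ino80-low wells resemble a control only by that threshold, since no file assigns a day 3 well to a genotype.

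The polyadenylated RNA came from adult cardiomyocytes of mouse hearts, 1 nanowell per cell on the iCELL8 system, which images wells and keeps those with a nucleus stained by Hoechst and no propidium iodide uptake. Every sample was from tamoxifen-treated mice. The day 1 and day 2 libraries carry the genotypes D1_INO80_OE and D2_INO80_OE, and the day 3 library carries both D3_INO80_OE and D3_Ctrl. The series title names Myh6-MCM, a Cre recombinase under the cardiomyocyte myosin promoter that tamoxifen activates, together with floxed Ino80, whereas the genotypes and the design speak of Ino80 overexpression or induction; the files do not settle this. Each day is 1 library, so the day and the genotype cannot be told apart in this comparison, no test was made, and no p-value is given. Wells are not replicates, and each interval below is an exact 95% interval for counting error only, without the spread between animals or libraries. The reads have no molecular identifiers, so copies of 1 molecule are counted separately. The intervals of CPM and of ratios can therefore be too narrow even for counting error. Day 0 was not analysed here.

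Ino80 encodes the motor ATPase of the INO80 chromatin remodeller, which slides nucleosomes, exchanges histone variants and opens chromatin for transcription, replication and repair. Adult ventricular cardiomyocytes contract through sarcomeres that are triggered by calcium released from the sarcoplasmic reticulum, and they draw their energy mostly from fatty acid oxidation in densely packed mitochondria. Injured or overloaded cardiomyocytes are known to lower genes of the adult calcium cycle and to raise fetal, cytoskeletal and stress genes. Estrogen receptor sequence (Esr1) is part of the Cre fusion in Mer-Cre-Mer mice, and the Rosa26 locus, whose transcript is Gt(ROSA)26Sor, is a common site for transgenes.

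The summed nuclear counts were 207962707 in day 2 Ino80-high wells and 178197781 in day 3 Ino80-low wells, with medians per well of 349083 and 438362 counts over all genes and of 3593 and 3871.5 detected genes. After each well was thinned to 30000 counts, the medians were 2184 genes in day 2 Ino80-high wells and 2154 in day 3 Ino80-low wells, with 5 and 3 shallower wells left out. Mitochondrially encoded genes took a median of 43.7% of the counts in day 2 Ino80-high wells (quartiles 27.7 to 49.1) and 22.2% in day 3 Ino80-low wells (20.2 to 26.7). Day 3 wells with at least 1000 CPM of Ino80 (433 wells) had a median of 19.8%, so within day 3 the mitochondrial share was not higher at high Ino80. Within day 2 the share was higher at high Ino80, since the 25 wells at 100 to 1000 CPM of Ino80 had a median of 24.4%. The parts of the day and of the Ino80 level in this share were not tested. Of the well barcodes, 247 occur in both the day 2 and the day 3 table.

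Ino80 itself chose the wells and is given only as a description. Its summed level was 4989 CPM in day 2 Ino80-high wells and 18.3 CPM in day 3 Ino80-low wells, with 3045 CPM in day 3 Ino80-high wells and 2927 CPM in day 1 Ino80-high wells. The median per well was 5200 CPM (quartiles 2737 to 7189) in day 2 Ino80-high wells and 15.8 CPM (8.75 to 25.03) in day 3 Ino80-low wells. Just inside the day 2 threshold stood 14 wells at 1036 to 1168 CPM, and 17 wells at 812 to 1000 CPM fell just short. On day 3, 10 wells at 81.0 to 98.7 CPM were kept as low, and 7 wells at 104 to 117 CPM were not. No day 2 well lay under 100 CPM and 25 lay between the thresholds, whereas day 3 had 51 wells in between.

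Sequences that the rule did not use separated the same wells. Esr1 (chr10:4611593-5005614, plus strand, mm10) was at 410.5 CPM (407.8 to 413.3) in day 2 Ino80-high wells and at 0.80 CPM (0.68 to 0.95) in day 3 Ino80-low wells. It had a count in 98.0% of day 2 Ino80-high wells and in 21.8% of day 3 Ino80-low wells, and in 94.3% and 2.64% after thinning. Gt(ROSA)26Sor, which shares exon sequence with Thumpd3 on the other strand, was at 107.9 CPM in day 2 Ino80-high wells and at 1.35 CPM in day 3 Ino80-low wells. Day 3 Ino80-high wells, from the same library as the low wells, had 95.1 CPM of Esr1 and 33.3 CPM of Gt(ROSA)26Sor, so both sequences also differed within the day 3 library. EGFP, a sequence added to the authors' reference, was found in 47 day 2 Ino80-high wells (5.75%, exact 95% interval 4.26 to 7.58) and in 4 day 3 Ino80-low wells (0.873%, 0.238 to 2.22). The other added sequence, 3xFlag, had 18 counts in day 2 Ino80-high wells and 8 in day 3 Ino80-low wells, too few to compare.

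**Figure D1:**
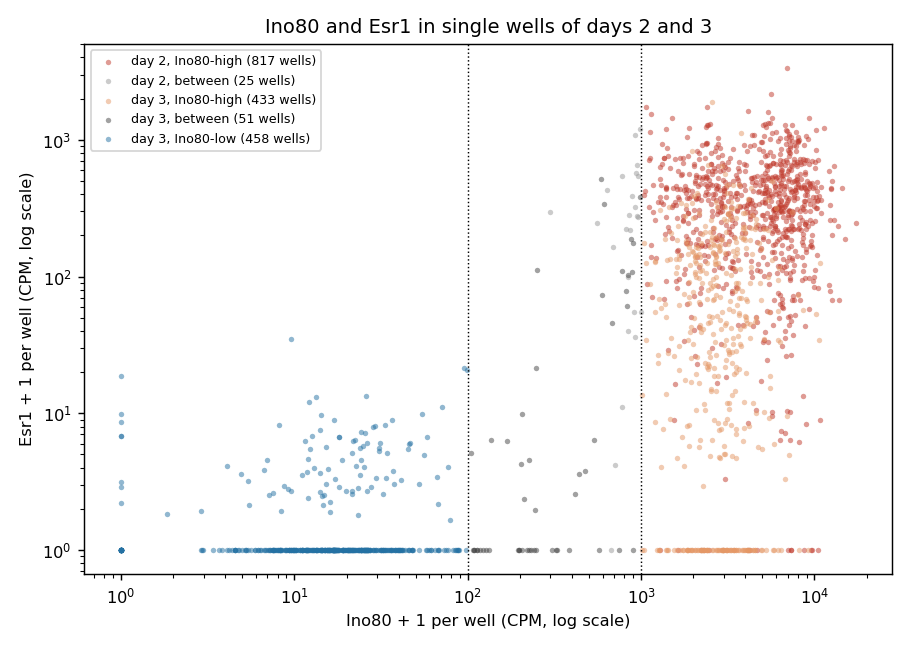
Each point is 1 well of day 2 or day 3, with Ino80 on the horizontal axis and Esr1 on the vertical axis, both as CPM plus 1 on log scales; dotted lines mark 100 and 1000 CPM of Ino80. The 817 day 2 Ino80-high wells lie at the upper right, day 3 Ino80-high wells partly below them, and most of the 458 day 3 Ino80-low wells have no Esr1 count.

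The wells dropped for macrophage markers divided in the same way. The 83 day 2 Ino80-high wells that were dropped for macrophage markers had a median of 4199 CPM of Ino80 and a summed level of 342 CPM of Esr1, and Esr1 was at 4.82 CPM in the 31 macrophage-marker wells of day 3 with low Ino80. The cardiomyocyte gene Tnnt2 was at 17021 CPM in those 83 day 2 wells and at 28409 CPM in those 31 day 3 wells. Cardiomyocyte RNA was thus present in wells that carry macrophage genes, and RNA of another cell in a well cannot be told from RNA of its own.

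Both groups carried the markers of ventricular cardiomyocytes. Tnnt2, cardiac troponin T, was at 20591 CPM in day 2 Ino80-high wells and 30742 CPM in day 3 Ino80-low wells, and Myh6, the adult myosin heavy chain, was at 12390 CPM in day 2 Ino80-high wells and 16205 CPM in day 3 Ino80-low wells. Both genes had a count in every well of both groups. Of the 12 ventricular markers measured, 1 (Pln) was 2-fold or more below its level in day 3 Ino80-low wells and none 2-fold or more above it, with a median log2 ratio of -0.38, where 3.67% and 22.9% of all genes with a mean of at least 5 CPM lay below and above. Wells with at least 300 CPM of endothelial markers made up 18.5% of day 2 Ino80-high wells and 12.7% of day 3 Ino80-low wells.

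Over all genes, the summed counts of day 2 Ino80-high wells stood above those of day 3 Ino80-low wells more often than below. Of 6178 genes with a mean of at least 10 CPM, 1189 (19.2%) stood 2-fold or more higher in day 2 Ino80-high wells and 210 (3.4%) stood 2-fold or more lower, and the median gene had a log2 ratio of 0.41. Highly expressed genes went the other way: the median log2 ratio was 0.54 among genes at 10 to 20 CPM and -0.16 among the 245 genes at 500 CPM or more. The split depends on the denominator. Higher genes made up 85.0% of those 2-fold apart on the nuclear scale, 68.6% with median-ratio scaling and 49.9% (358 higher, 359 lower) with mitochondrial counts in the total, where the median gene was at 0.02. Among wells with 25 to 35% mitochondrial counts in both groups (168 and 84 wells) they made up 57.7%. A log2 ratio near 0.4 therefore marks a gene that kept pace with the median gene. The lists below are read against the median of their own filter, 0.45 over genes with a mean of at least 5 CPM. This reference does not account for level, and no list was compared with genes of its own level. For highly expressed lists, such as sarcomere and complex I genes, a distance below it can be shared by other genes of that level.

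**Figure D2:**
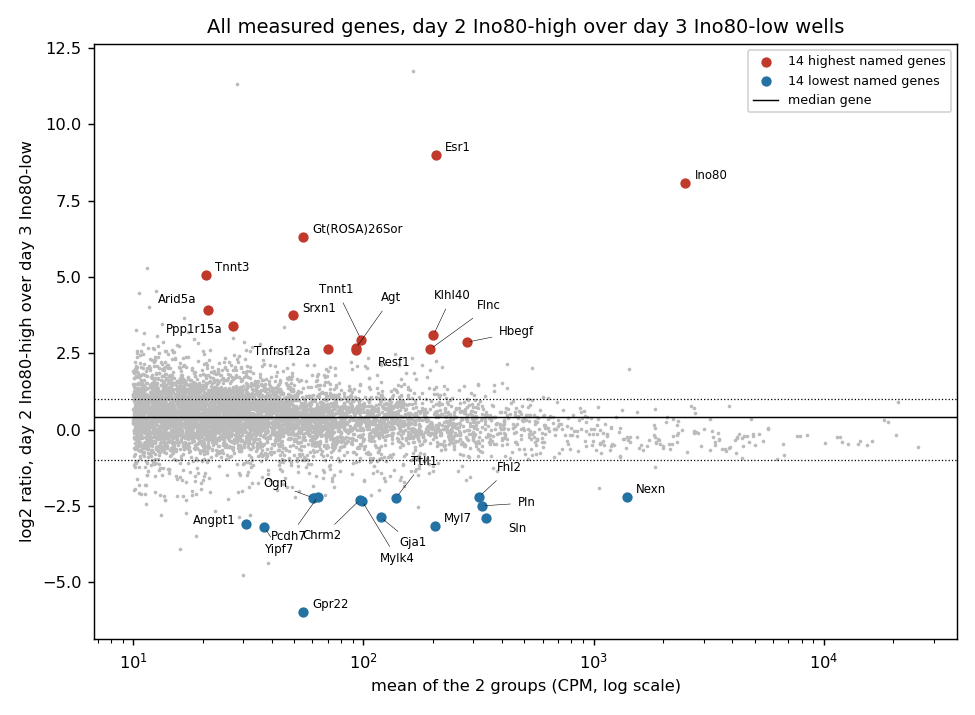
Each grey point is a gene with a mean of at least 10 CPM, placed by the mean of both groups (log scale) and by its log2 ratio, day 2 Ino80-high over day 3 Ino80-low; red and blue points are the 14 highest and 14 lowest named genes, dotted lines mark 2-fold and the solid line the median gene at 0.41. The 2 unlabelled points above 10 are the antibody genes Igkc and Igha, of whose day 2 counts 1 well gave 97.8% and 97.6%.

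The 14 lowest genes in day 2 Ino80-high wells included Pln, Nexn and Fhl2, which act at the calcium store and the Z-disc. Pln, phospholamban, the brake on the calcium pump of the sarcoplasmic reticulum (chr10:53337667-53345987, plus strand, exons shared with Cep85l on the other strand), was at 97.8 CPM (96.5 to 99.2) in day 2 Ino80-high wells and 554 CPM (550 to 557) in day 3 Ino80-low wells, 5.66-fold lower. Its quartiles over wells were 15.0 to 108 CPM in day 2 Ino80-high wells and 330 to 777 CPM in day 3 Ino80-low wells and did not overlap. Nexn, nexilin, an actin-binding protein of the Z-disc and the dyad, was 4.61-fold lower, at 499 CPM in day 2 Ino80-high wells against 2298 CPM in day 3 Ino80-low wells. The quartiles of Nexn were likewise apart, with medians per well of 413 and 2234 CPM in day 2 Ino80-high and day 3 Ino80-low wells. Fhl2, a LIM-domain protein that binds titin, was at 113 CPM in day 2 Ino80-high wells and 521 CPM in day 3 Ino80-low wells. A count of Fhl2 was present in 85.2% of day 2 Ino80-high wells and 99.3% of day 3 Ino80-low wells, so for this gene the difference lay mostly in the amount per well.

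Gpr22, Gja1 and Chrm2 were lower in both the share of wells with a count and the level. Gpr22, an orphan receptor of the heart, was at 1.71 CPM (1.54 to 1.90) in day 2 Ino80-high wells and 108 CPM (106 to 109) in day 3 Ino80-low wells, a log2 ratio of -5.98 (-6.13 to -5.83). It had a count in 6.98% of day 2 Ino80-high wells and 63.3% of day 3 Ino80-low wells (2.59% and 41.8% after thinning). Gja1, connexin 43 of the gap junctions between ventricular cells, was at 28.5 CPM in day 2 Ino80-high wells and 210 CPM in day 3 Ino80-low wells. Gja1 had a count in 39.3% of day 2 Ino80-high wells and 96.9% of day 3 Ino80-low wells, with medians of 0 and 131 CPM per well. Chrm2, the muscarinic receptor that slows the heart, was at 32.6 CPM in day 2 Ino80-high wells and 160 CPM in day 3 Ino80-low wells, with a count in 34.03% and 79.3% of those wells.

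The remaining lowest genes have varied roles. Yipf7, a Golgi membrane protein gene, had a log2 ratio of -3.21, with a count in 20.6% of day 2 Ino80-high wells and 91.0% of day 3 Ino80-low wells. Angpt1, the ligand of the endothelial receptor Tie2, was at -3.08, and Ttll1, which adds glutamate chains to tubulin, at -2.23. Mylk4, a myosin light chain kinase, Ogn, the matrix proteoglycan osteoglycin, and Pcdh7, a protocadherin, were at -2.33, -2.24 and -2.20. Each of these 6 genes had a median of 0 CPM per well in day 2 Ino80-high wells, against medians of 3.30 (Angpt1) to 114 CPM (Ttll1) in day 3 Ino80-low wells.

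Myl7 and Sln, the atrial regulatory light chain and sarcolipin, were low in day 2 Ino80-high wells but not in the other Ino80-high groups. Myl7 was at 41.0 CPM in day 2 Ino80-high wells, 617 CPM in day 3 Ino80-high wells, 1248 CPM in day 1 Ino80-high wells and 367 CPM in day 3 Ino80-low wells. Sln was at 81.4 CPM in day 2 Ino80-high wells, 1117 CPM in day 3 Ino80-high wells, 2342 CPM in day 1 Ino80-high wells and 603 CPM in day 3 Ino80-low wells. Atrial wells, with at least 20000 CPM of atrial markers, numbered 1 of the day 2 Ino80-high, 3 of the day 3 Ino80-high, 16 of the day 1 Ino80-high and 5 of the day 3 Ino80-low wells. Of the 8 atrial markers measured, 7 stood 2-fold or more lower in day 2 Ino80-high than in day 3 Ino80-low wells, with a median log2 ratio of -1.28. With wells of 5 other cell types dropped, these atrial wells among them, that median was -1.29 (649 and 387 wells left). That setting drops wells by Sln and Myl7 themselves, and the part of the atrial share of each preparation in these values was not tested.

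The genes highest in day 2 Ino80-high wells included stress, skeletal-muscle and growth-factor genes. Klhl40, which stabilises thin-filament proteins in skeletal muscle, was at 360 CPM (358 to 363) in day 2 Ino80-high wells and 42.3 CPM (41.3 to 43.2) in day 3 Ino80-low wells, 8.52-fold higher. Its quartiles over wells, 52.6 to 547 CPM in day 2 Ino80-high wells and 0 to 15.9 CPM in day 3 Ino80-low wells, did not overlap. Tnnt1 and Tnnt3, the slow and fast skeletal troponin T genes, had log2 ratios of 2.94 and 5.08. Tnnt1 was at 173 CPM in day 2 Ino80-high wells and 22.5 CPM in day 3 Ino80-low wells, and Tnnt3 at 40.3 and 1.20 CPM in those groups. Flnc, filamin C, a crosslinker of actin at the Z-disc, was at 336 CPM in day 2 Ino80-high wells and 54.2 CPM in day 3 Ino80-low wells, with quartiles of 100.3 to 488 CPM and 6.26 to 74.97 CPM.

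Ligands and receptors of injury responses were also among the highest genes. Hbegf, a growth factor that binds the EGF receptor, was at 494 CPM (491 to 497) in day 2 Ino80-high wells and 68.1 CPM (66.9 to 69.3) in day 3 Ino80-low wells. The median well held 347 CPM of Hbegf in the day 2 Ino80-high group and 11.1 CPM in the day 3 Ino80-low group. Tnfrsf12a, the receptor of the cytokine TWEAK, was at 121 CPM in day 2 Ino80-high wells and 19.6 CPM in day 3 Ino80-low wells, and Agt, angiotensinogen, at 160 and 25.3 CPM in those groups. These genes act outside the cell or at its surface, whereas the next ones act within it.

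Srxn1, sulfiredoxin, which restores oxidised peroxiredoxins, was at 92.2 CPM (90.9 to 93.5) in day 2 Ino80-high wells and 6.89 CPM (6.51 to 7.29) in day 3 Ino80-low wells, 13.4-fold higher. The spread over wells was wide, with a median of 9.60 CPM in day 2 Ino80-high wells and 1.81 CPM in day 3 Ino80-low wells, so a minority of wells carried most of the counts. Ppp1r15a, which restores translation after the integrated stress response (exons shared with Tulp2 on the other strand), had a log2 ratio of 3.40 and a median of 0 CPM per well in both groups. Arid5a, an RNA-binding regulator of inflammatory transcripts, was at 39.5 CPM in day 2 Ino80-high wells and 2.61 CPM in day 3 Ino80-low wells, where 1 well gave 40.4% of its counts. Resf1, a factor that silences retroelements, was at 159 CPM in day 2 Ino80-high wells and 26.2 CPM in day 3 Ino80-low wells.

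**Figure D3:**
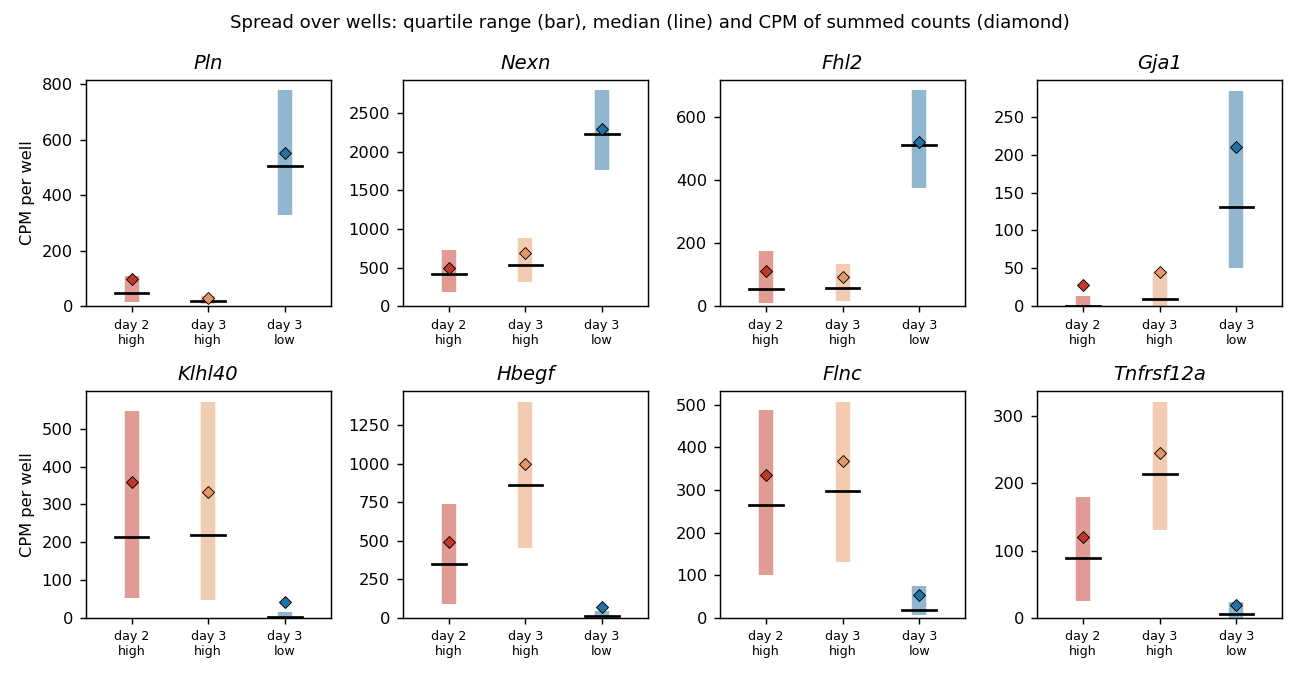
Bars give the quartile range of CPM per well, black lines the median and diamonds the CPM of summed counts for 8 named genes in day 2 Ino80-high, day 3 Ino80-high and day 3 Ino80-low wells, each on a linear axis from 0. In all 8 the quartile range of the 817 day 2 Ino80-high wells lies apart from that of the 458 day 3 Ino80-low wells.

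The same genes can be read in day 3 Ino80-high wells, which share a library with the low wells; both comparisons use the same day 3 Ino80-low wells, so their values are set side by side and not counted as separate evidence. Pln was at 97.8 CPM in day 2 Ino80-high wells and lower still, at 31.1 CPM, in day 3 Ino80-high wells. Hbegf was at 494 CPM in day 2 Ino80-high wells and 1001 CPM in day 3 Ino80-high wells, Tnnt1 at 173 and 428 CPM, and Tnfrsf12a at 121 and 245 CPM in those groups. Klhl40 was at 360 CPM in day 2 and 332 CPM in day 3 Ino80-high wells, and Flnc at 336 and 369 CPM. Over all 6052 genes with a mean of at least 10 CPM in the day 3 comparison, 23.4% stood 2-fold or more higher and 11.5% stood 2-fold or more lower in day 3 Ino80-high wells. In day 1 Ino80-high wells Hbegf was at 201 CPM, Tnnt1 at 67.9 CPM, Srxn1 at 25.8 CPM and Pln at 93.3 CPM.

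Day 2 Ino80-high wells varied in Ino80 along with the mitochondrial share: 289 wells with less than 35% mitochondrial counts had an Ino80 median of 2378 CPM, and 528 wells with more had 6602 CPM. Flnc was at 240 CPM in the wells with less and 396 CPM in those with more, and Srxn1 at 127 and 70.6 CPM. Pln was at 86.6 and 105 CPM and Nexn at 537 and 474 CPM in those wells, all far from the 554 CPM of Pln and 2298 CPM of Nexn in day 3 Ino80-low wells. In the dropped macrophage-marker wells, compared in the same way (83 and 31 wells), 12 of the 13 highest genes other than Ino80, which defines these wells, and 12 of the 14 lowest stood 2-fold or more apart in the same direction, where 34.3% of all genes stood that much higher and 9.47% that much lower. The exceptions were Ppp1r15a (log2 ratio 0.87), Mylk4 (-0.38) and Ogn (-0.79). The authors' strand setting is not given in the sources used here, and 3 of the 14 highest and 5 of the 14 lowest genes have exons that overlap another gene.

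**Figure D4:**
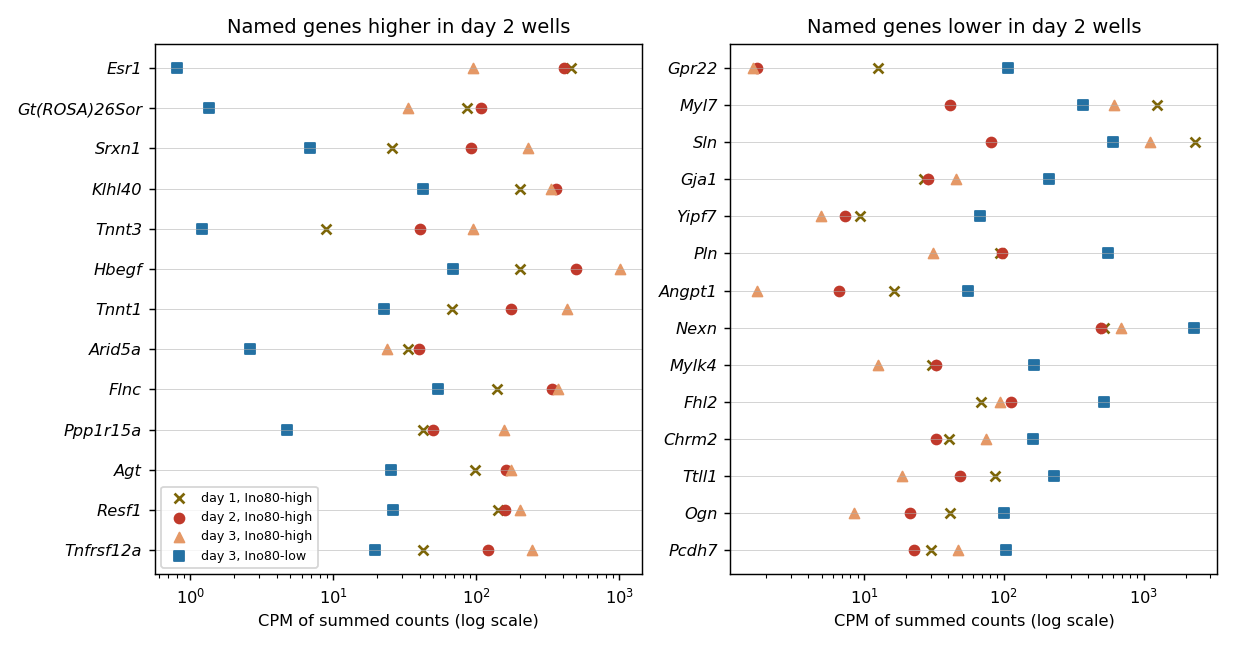
Points give the CPM of summed counts (log scale) of the named genes in Ino80-high wells of days 1, 2 and 3 and in day 3 Ino80-low wells; Ino80 is left out. Every gene on the left has its lowest value in day 3 Ino80-low wells, and every gene on the right except Myl7 and Sln has its highest value there.

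Calcium cycling genes stood lower as a group. Of 21 measured members of 22, 8 were 2-fold or more lower and 1 (Ppp1r1a, an inhibitor of protein phosphatase 1) that much higher in day 2 Ino80-high wells, where 3.67% and 22.9% of all 8064 genes with a mean of at least 5 CPM were; this filter applies to all lists below. The median log2 ratio was -0.83, against 0.45 over those genes, a distance of -1.28, and it was -1.43 for day 3 Ino80-high wells. Trdn, triadin, which anchors calsequestrin to the release channel, was at 447 CPM in day 2 Ino80-high wells and 1667 CPM in day 3 Ino80-low wells. Cacna1c, the pore of the L-type calcium channel, was at 20.1 CPM in day 2 Ino80-high wells and 69.2 CPM in day 3 Ino80-low wells. Atp2a2, the calcium pump SERCA2, was at 4835 CPM in day 2 Ino80-high wells and 8620 CPM in day 3 Ino80-low wells, and Ryr2, the release channel, at 924 and 1685 CPM in those groups.

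Repolarising potassium channels and transcription factors of the heart followed. Kcnd2, the pore subunit of the transient outward current, was at 8.92 CPM in day 2 Ino80-high wells and 42.7 CPM in day 3 Ino80-low wells, and its partner Kcnip2 at 20.9 and 84.2 CPM. Over the 16 measured ion channel and pump genes, 3 were 2-fold or more higher and 3 that much lower, with a median of -0.04 in day 2 and -1.28 in day 3 Ino80-high wells. The day 2 median was -0.86 among wells with 25 to 35% mitochondrial counts and 0.31 with day 2 wells at 35% or more. Of 17 measured cardiac transcription factors, 6 were 2-fold or more lower and 1 that much higher, with a median of -0.47, and -1.84 among wells with 25 to 35% mitochondrial counts. Mef2c, a regulator of muscle genes, was at 47.9 CPM in day 2 Ino80-high wells and 131 CPM in day 3 Ino80-low wells, and Prox1 at 24.99 and 63.3 CPM in those groups.

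Sarcomere genes as a list did not follow Nexn. Of 27 measured members, 1 stood 2-fold or more lower and 2 (Flnc and Des) stood 2-fold or more higher. The median log2 ratio was 0.04, a distance of -0.41 from the median gene. The list's median itself was -0.31 with mitochondrial counts in the total and -0.17 with median-ratio scaling. Over genes with a mean of at least 10 CPM, the median gene was at 0.02 and 0.18 in those settings. Des, the intermediate filament desmin, was at 857 CPM in day 2 Ino80-high wells and 415 CPM in day 3 Ino80-low wells. In day 3 Ino80-high wells the list's median was -0.67. Among 18 measured intercalated disc genes, 4 were 2-fold or more lower, Gja1 and the cadherin Cdh2 (33.2 and 100.4 CPM in day 2 Ino80-high and day 3 Ino80-low wells) among them. In the same list 3 were 2-fold or more higher, including Xirp1, an actin-binding protein of the disc, at 193 CPM in day 2 Ino80-high wells and 42.7 CPM in day 3 Ino80-low wells. The median of the disc genes was 0.20. It was -0.32 with mitochondrial counts in the total and -0.02 with median-ratio scaling, settings in which the median gene was lower too.

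Genes of the mitochondrion divided by genome. Of 37 measured complex I subunits encoded in the nucleus, none was 2-fold apart, 33 had a negative log2 ratio, and the median was -0.39. The subunits of complexes II to V were alike, with 37 of 39 negative and a median of -0.24. Ndufa12 of complex I was at 3052 CPM in day 2 Ino80-high wells and 5252 CPM in day 3 Ino80-low wells, and Cycs, cytochrome c, at 2841 and 4646 CPM. Mitochondrially encoded genes, taken against the total of all genes, stood higher: all 8 measured of 13 had positive log2 ratios, with a median of 0.71. The cytochrome b gene mt-Cytb was at 59570 CPM of all counts in day 2 Ino80-high wells and 36313 CPM in day 3 Ino80-low wells, and mt-Co1, of complex IV, at 24333 and 12319 CPM. In day 3 Ino80-high wells the median of these genes was -0.07. Among the genes not measured, mt-Co2, mt-Co3 and mt-Atp6 were at 0.0115, 0.115 and 0.0172 CPM of all counts in day 2 Ino80-high wells. In day 3 Ino80-low wells they were at 0.0128, 0.0128 and 0.205 CPM. The mitochondrial share thus holds almost no counts of these genes, for a reason that was not tested. In wells with 25 to 35% mitochondrial counts, the medians of complex I and of complexes II to V were -0.04 and 0.06, so their distance from day 3 Ino80-low wells moved with the mitochondrial share. What part that share has in the nuclear ratios was not tested.

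Genes of fatty acid oxidation were mostly below 0 on the nuclear scale. Of 25 measured genes of fatty acid uptake and oxidation, 19 had a negative log2 ratio and the median was -0.23. Lpl, lipoprotein lipase, was at 4210 CPM in day 2 Ino80-high wells and 8306 CPM in day 3 Ino80-low wells, and Cd36, a fatty acid transporter, at 433 and 730 CPM. Ppargc1a, the coactivator PGC-1α that drives mitochondrial genes, was at 22.9 CPM (22.3 to 23.6) in day 2 Ino80-high wells and 99.4 CPM (98.0 to 100.9) in day 3 Ino80-low wells. Fabp4, a fatty acid carrier of endothelial cells and the 1 member 2-fold or more higher, was at 289 CPM in day 2 Ino80-high wells and 129 CPM in day 3 Ino80-low wells, and endothelial-marker wells differed as given above. Glycolysis genes, 23 measured, had no member 2-fold apart and a median of 0.28. It turned to -0.12 with mitochondrial counts in the total, where the median gene was lower too.

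Genes known from injured cardiomyocytes were high as a group. Of 16 measured members of the injury and border zone list, 12 were 2-fold or more higher and none that much lower, with a median log2 ratio of 1.71, which is 1.26 above the median gene. For day 3 Ino80-high wells the median was 3.47. The members besides Flnc, Hbegf and Tnfrsf12a included Lcn2, lipocalin 2, at 51.0 CPM in day 2 Ino80-high wells and 13.6 CPM in day 3 Ino80-low wells. Mt1, metallothionein 1, was at 912 CPM in day 2 Ino80-high wells, 3194 CPM in day 3 Ino80-high wells and 1306 CPM in day 3 Ino80-low wells. The list's median was 2.49 with day 2 wells under 35% mitochondrial counts, 1.16 with day 2 wells at 35% or more, and 1.86 with wells of 25 to 35% in both groups.

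The fetal and stress list was mixed. Of 21 measured members, 11 were 2-fold or more higher and 3 that much lower, with a median of 1.05. The median was 0.34 with mitochondrial counts in the total and 0.38 among wells with 25 to 35% mitochondrial counts. Rcan1, an inhibitor of calcineurin that calcineurin itself induces, was at 156 CPM in day 2 Ino80-high wells and 27.5 CPM in day 3 Ino80-low wells. Acta1, skeletal actin, was at 2267 CPM in day 2 Ino80-high wells and 570 CPM in day 3 Ino80-low wells, and Nppb, the B-type natriuretic peptide, at 519 and 216 CPM in those groups. Nppa, the atrial natriuretic peptide, stood the other way, at 14.3 CPM in day 2 Ino80-high wells, 224 CPM in day 3 Ino80-high wells and 32.9 CPM in day 3 Ino80-low wells. Tubulin and cytoskeleton genes had 10 of 19 measured members 2-fold or more higher and a median of 1.03, with Tubb2a, a beta tubulin, at 67.2 CPM in day 2 Ino80-high wells and 15.7 CPM in day 3 Ino80-low wells.

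**Figure D5:**
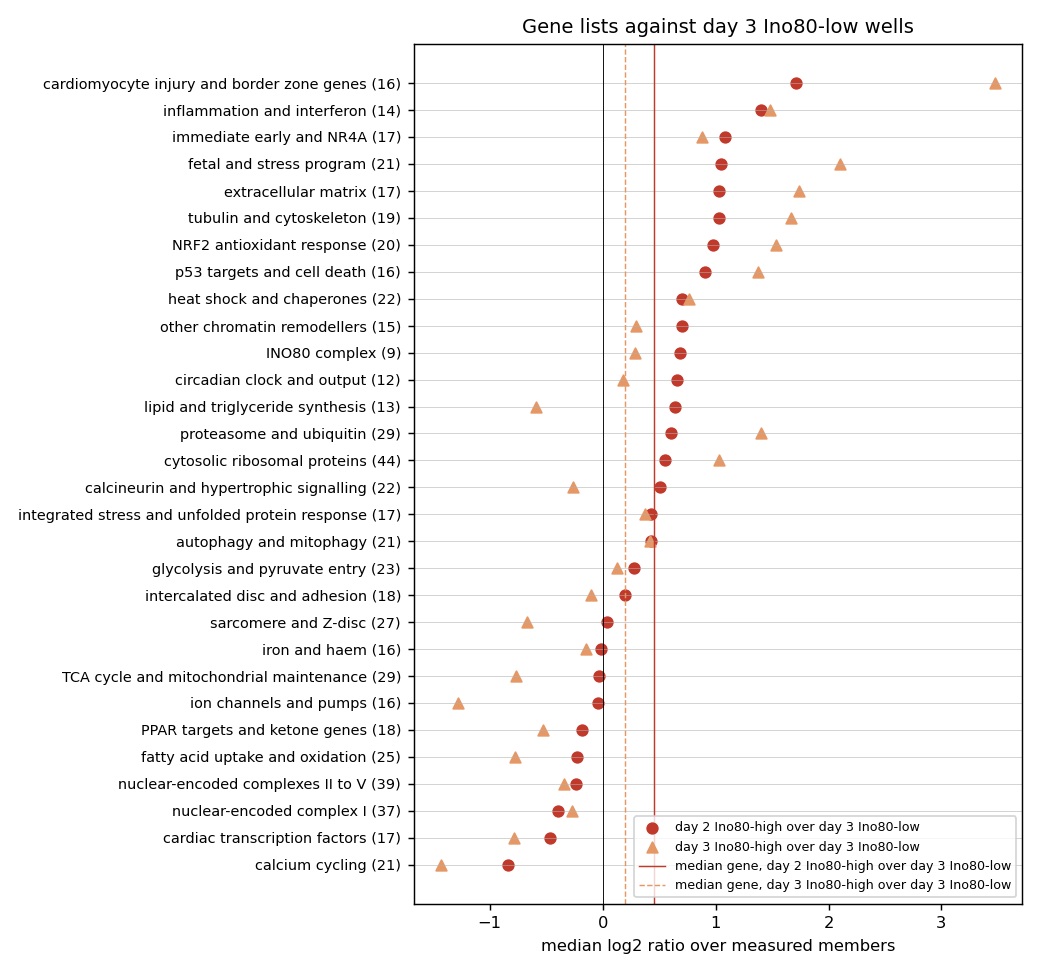
Points give the median log2 ratio over the measured members (numbers in brackets) of each gene list with at least 5 measured members, for day 2 Ino80-high (circles) and day 3 Ino80-high wells (triangles) over the same day 3 Ino80-low wells; vertical lines mark the median gene, 0.45 for day 2. Of the lists drawn, the injury list is highest in both (1.71 and 3.47) and the calcium list lowest (-0.83 and -1.43); mitochondrially encoded genes are left out because they use another total.

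Antioxidant genes under the factor NRF2 and chaperones under heat shock factor stood high in part. In the NRF2 list, 9 of 20 measured members were 2-fold or more higher and none that much lower, with a median of 0.98. Nfe2l2, which encodes NRF2, was at 161 CPM in day 2 Ino80-high wells and 50.5 CPM in day 3 Ino80-low wells. Gclm, a subunit of the enzyme that starts glutathione synthesis, was at 40.4 CPM in day 2 Ino80-high wells and 9.88 CPM in day 3 Ino80-low wells, and Txnrd1, thioredoxin reductase, at 75.8 and 22.5 CPM in those groups. Sod2, the mitochondrial superoxide dismutase, was at 334 CPM in day 2 Ino80-high wells and 553 CPM in day 3 Ino80-low wells. In the heat shock list, 5 of 22 were 2-fold or more higher, close to the 22.9% over all genes, with a median of 0.70.

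Hsp90aa1, the stress-induced form of the chaperone HSP90, had the largest log2 ratio of the heat shock list, 2.15, at 686 CPM in day 2 Ino80-high wells and 154 CPM in day 3 Ino80-low wells. Hspa1a, an inducible HSP70 gene, was at 99.2 CPM in day 2 Ino80-high wells, 540 CPM in day 3 Ino80-high wells and 27.9 CPM in day 3 Ino80-low wells; its near-identical copy Hspa1b and the overlapping Gm20481 make the division of its reads uncertain. Dnaja1, a J-domain partner of HSP70 (overlapping Smu1), was at 115 and 49.7 CPM in day 2 Ino80-high and day 3 Ino80-low wells. Fkbp4, an HSP90 partner of steroid receptors, stood the other way, at 195 CPM in day 2 Ino80-high wells and 349 CPM in day 3 Ino80-low wells.

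Promoters of 4 of these genes are shown because the lists are defined by factors with known motifs. They run from 250 bases before to 50 after the start in RefSeq (GRCm38.p6), 5′ to 3′ on the gene's strand, with matches in capitals: TGANNNNGC or its reverse complement, the core of the antioxidant element, in Srxn1, and the palindrome GAANNTTC, a pair of heat shock units, in the others. The antioxidant core can overlap the letters of an AP-1 site. Srxn1 lies at chr2:152105274-152105573 (plus), Hspa1a at chr17:34972107-34972406 (minus), Dnaja1 at chr4:40722218-40722517 (plus) and Fkbp4 at chr6:128438607-128438906 (minus).
Srxn1: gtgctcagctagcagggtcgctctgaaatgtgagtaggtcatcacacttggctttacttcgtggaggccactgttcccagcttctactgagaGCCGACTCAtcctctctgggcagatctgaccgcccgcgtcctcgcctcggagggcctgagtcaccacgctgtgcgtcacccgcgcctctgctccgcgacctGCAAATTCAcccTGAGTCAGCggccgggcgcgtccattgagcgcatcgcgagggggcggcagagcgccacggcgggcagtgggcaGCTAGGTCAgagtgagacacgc
Hspa1a: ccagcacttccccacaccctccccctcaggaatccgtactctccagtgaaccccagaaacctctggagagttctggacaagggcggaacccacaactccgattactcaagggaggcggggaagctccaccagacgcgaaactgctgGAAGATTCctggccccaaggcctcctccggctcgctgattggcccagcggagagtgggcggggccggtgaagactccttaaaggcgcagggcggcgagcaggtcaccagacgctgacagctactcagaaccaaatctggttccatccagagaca
Dnaja1: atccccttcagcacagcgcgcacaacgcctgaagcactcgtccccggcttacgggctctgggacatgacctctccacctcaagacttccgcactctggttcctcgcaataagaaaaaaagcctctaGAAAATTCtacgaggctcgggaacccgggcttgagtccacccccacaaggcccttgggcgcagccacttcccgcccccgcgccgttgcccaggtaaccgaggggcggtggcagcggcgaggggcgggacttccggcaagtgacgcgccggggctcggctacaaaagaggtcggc
Fkbp4: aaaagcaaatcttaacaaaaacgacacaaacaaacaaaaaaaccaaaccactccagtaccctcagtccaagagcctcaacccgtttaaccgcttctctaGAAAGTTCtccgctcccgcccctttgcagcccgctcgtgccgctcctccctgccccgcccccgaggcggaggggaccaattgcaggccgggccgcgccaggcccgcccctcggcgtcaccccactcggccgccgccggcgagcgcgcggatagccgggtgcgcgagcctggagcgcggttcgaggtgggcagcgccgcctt

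The Srxn1 promoter held 4 matches to the antioxidant core. Across the 21 promoters of the 17 NRF2-list genes found in the table, 42.9% held a match, against 41.3% of all 32851 promoters, so these letters did not set the list apart. The heat shock pair was in 13 of 25 promoters (52%) of the 18 heat shock genes found and in 7.86% of all promoters. These 13 are not separate sites. The windows of Hspd1 and Hspe1 share a match, both Hsph1 windows share another, and those of Hspa1a and Hspa1b are near-identical. The list is also defined by the factor whose motif this is. The pair was present in the promoter of Hspa1a and in 1 of the 3 of Dnaja1, genes that stood higher in day 2 Ino80-high wells. It was also in that of Fkbp4, which stood lower. None of the 13 promoters found for the 14 highest genes, nor of the 10 for the 14 lowest, held the pair. The E-box CACGTG was in 7.15% of all promoters and in none of those of the named genes, and TGATGNAA, the core of the amino acid response element, was in 3.97% of all and in 2 of the 13.

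Inflammatory and early-response genes were high in day 2 Ino80-high wells, together with markers of other cells. In the inflammation and interferon list, 12 of 14 measured members were 2-fold or more higher and none that much lower, with a median of 1.40. Stat3, a transducer of IL-6 signals, was at 96.9 CPM in day 2 Ino80-high wells and 28.4 CPM in day 3 Ino80-low wells, and B2m, the light chain of MHC class I, at 178 and 59.9 CPM. Of 17 measured immediate early genes, 10 were 2-fold or more higher, with a median of 1.09. Atf3, a stress-induced repressor, was at 164 CPM in day 2 Ino80-high wells and 39.0 CPM in day 3 Ino80-low wells. Of 16 measured p53 targets, 5 were 2-fold or more higher, where 22.9% of all genes were, with a median of 0.91. Cdkn1a, the cell-cycle inhibitor p21, had the largest ratio of them. It was at 273 CPM in day 2 Ino80-high wells, 1202 CPM in day 3 Ino80-high wells and 53.7 CPM in day 3 Ino80-low wells.

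Markers of several other cell types, though not of all, moved with these lists. Of 9 measured endothelial markers, 5 were 2-fold or more higher, and their summed level was 658 CPM in day 2 Ino80-high wells and 322 CPM in day 3 Ino80-low wells. Of 8 pericyte and smooth muscle markers, 5 were 2-fold or more higher, where 22.9% of all genes were, and the other 3 had negative log2 ratios. Among the higher ones, Rgs5 was at 341 and 72.6 CPM in day 2 Ino80-high and day 3 Ino80-low wells. Of 6 measured fibroblast markers, 1 was 2-fold or more higher, and their median of 0.53 lay near the 0.45 of the median gene. The 4 measured haemoglobin genes summed to 1089 CPM in day 2 Ino80-high wells and 375 CPM in day 3 Ino80-low wells, but their median log2 ratio turned to -0.57 with day 2 wells under 35% mitochondrial counts and to -0.70 at 25 to 35% in both groups. Macrophage markers, which the rule limits, summed to 82.9 CPM in day 2 Ino80-high wells and 27.3 CPM in day 3 Ino80-low wells over the 4 measured. With endothelial-marker wells also dropped (666 and 400 wells left), the medians were 1.41 for the inflammation list, 1.01 for immediate early genes and 1.14 for extracellular matrix, where the full groups gave 1.40, 1.09 and 1.03. Extracellular matrix had 10 of 17 measured members 2-fold or more higher and 1 that much lower, with Sparc at 299 CPM in day 2 Ino80-high wells and 114 CPM in day 3 Ino80-low wells.

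Other measured parts of the INO80 complex were less than 2-fold apart between day 2 Ino80-high and day 3 Ino80-low wells. Of 9 measured members of 15, only Ino80, which chose the wells, was 2-fold or more apart. A median without Ino80 was not taken, and the median over all 9, Ino80 included, was 0.69. This median was 0.32 with day 2 wells under 35% mitochondrial counts and 0.82 with those at 35% or more. In day 3 Ino80-high wells 3 of the 9, Ino80 among them, were 2-fold or more higher, where 23.4% of all genes with a mean of at least 10 CPM were. Yy1, a DNA-binding partner of the complex, was at 57.0 CPM in day 2 Ino80-high wells and 30.7 CPM in day 3 Ino80-low wells, Uchl5, a deubiquitinase held by the complex, at 70.6 and 68.2 CPM, and Actr8, an actin-related subunit, at 27.3 and 29.6 CPM. Among 15 measured subunits of other remodellers, 4 were 2-fold or more higher, near the 22.9% over all genes. Smarcc1 of the BAF complex was at 51.2 CPM in day 2 Ino80-high wells and 20.9 CPM in day 3 Ino80-low wells. The median of that list was 0.70, and -0.069 among wells with 25 to 35% mitochondrial counts.

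Protein synthesis and breakdown genes were nearer to the median gene than in the day 3 comparison. All 44 measured ribosomal protein genes had positive log2 ratios, with a median of 0.55 for day 2 Ino80-high wells, 0.10 above the median gene, and 1.03 for day 3 Ino80-high wells. Proteasome and ubiquitin genes had a median of 0.60 for day 2 and 1.40 for day 3 Ino80-high wells. Psma5, a core subunit, was at 146 CPM in day 2 Ino80-high wells, 399 CPM in day 3 Ino80-high wells and 69.9 CPM in day 3 Ino80-low wells. Lipid synthesis genes stood on opposite sides, with medians of 0.64 for day 2 and -0.59 for day 3 Ino80-high wells over 13 members. Scd2, a fatty acid desaturase, was at 48.0 CPM in day 2 Ino80-high wells, 12.9 CPM in day 3 Ino80-high wells and 6.03 CPM in day 3 Ino80-low wells, and Acacb, which makes malonyl-CoA, at 48.1, 8.72 and 24.3 CPM in those groups.

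Of 12 measured clock genes, 5 were 2-fold or more higher in day 2 Ino80-high wells and none that much lower, with a median of 0.66, which was 0.047 among wells with 25 to 35% mitochondrial counts. Nfil3, a repressor in the clock's output, was at 92.3 CPM in day 2 Ino80-high wells, 39.2 CPM in day 3 Ino80-high wells and 21.5 CPM in day 3 Ino80-low wells. Cry2, a core repressor, was at 37.1 CPM in day 2 Ino80-high wells, 37.2 CPM in day 3 Ino80-high wells and 9.49 CPM in day 3 Ino80-low wells. The hour at which each heart was taken is not given in the sources used here, and its part was not tested.

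The remaining lists lay near the median gene or below it. Genes of the integrated stress and unfolded protein responses had a median of 0.43 over 17 measured members, with 6 of them 2-fold or more higher, and autophagy genes had a median of 0.43 over 21. Hspa5, the main chaperone of the endoplasmic reticulum, was at 907 CPM in day 2 Ino80-high wells and 1441 CPM in day 3 Ino80-low wells, whereas Ddit3, a transcription factor of prolonged stress, was at 49.1 and 20.6 CPM in those groups. Calcineurin and hypertrophic signalling genes had a median of 0.51 over 22 members, which turned to -0.36 among wells with 25 to 35% mitochondrial counts. Medians were -0.03 for the TCA cycle and mitochondrial maintenance (29 members) and -0.18 for PPAR targets (18 members), but 0.05 and 0.15 with day 2 wells at 35% or more mitochondrial counts.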

How the data were processed

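The authors' deposited files are 1 table per library of unnormalised whole-number counts, genes by wells. Programs listed by the submitters' processing notes are cutadapt, STAR and featureCounts, with the build mm10; their versions, the strand setting and the annotation file were not stated there. Symbols came from GENCODE M21 on mm10, where 55141 of 55401 mouse identifiers matched. Counts were summed over the wells of each group and divided by the total of nuclear-encoded genes. CPM have exact Poisson intervals, log2 ratios exact intervals from the binomial split and shares of wells Clopper-Pearson intervals, all at 95%. Doublets were not called, and wells were not clustered.

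Named genes were the 14 highest and 14 lowest by log2 ratio with 5 CPM added, among genes with a mean of at least 20 CPM. They needed counts in 10% or more of the higher group's wells, no more than 25% of its counts from a single well, and a mean over wells and a share of wells that differed in that direction too. Pseudogenes, unnamed models, mitochondrial and ribosomal protein genes were left out. From each of 33 gene and 12 marker lists, up to 4 members with the largest ratios and 1 of opposite sign could be named; Tnnt2, Myh6, Acta1, Nppb and Ppp1r1a fall outside this and were named after their values were seen. The members and lists were chosen with earlier results of these data known. A few list members are not reported here. Among named list members, Actr8, Smarcc1, Des, Gclm, Hspa1a, Dnaja1, Psma5, Cdkn1a, Cry2, Ddit3, Prox1, Scd2, Stat3, Atp2a2, Nppa and Myh6 have exons that overlap another gene. The calculation of ratios and intervals was tested on simulated data. Python 3.11.15, numpy 2.4.6, scipy 1.17.1, pandas 2.3.3 and matplotlib 3.10.9 were used.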

Additional observations from a re-analysis of the deposited data

How the results depend on the processing

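The counts of genes 2-fold apart moved by over 1.5 times with the filter on low values and with the scaling. At a mean of at least 1 CPM there were 3233 higher and 669 lower genes in day 2 Ino80-high wells, and at 50 CPM 217 and 88; for day 3 Ino80-high wells the counts were 3656 and 1663, and 443 and 266. These filters test other numbers of genes. With mitochondrial counts in the total the day 2 counts were 358 and 359, and with median-ratio scaling 718 and 329. Lower genes numbered 751 among wells with 25 to 35% mitochondrial counts and 345 with day 2 wells under 35%; the cause was not tested. Under the other settings, 1 of them (day 3 Ino80-low wells with no Esr1 count) chosen after seeing the data, the day 2 counts lay between 851 and 1657 higher and 200 and 227 lower genes.

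Signs of list medians were taken against 0 and not against the median gene. The median gene moved from 0.41 to 0.02 with mitochondrial counts in the total and to 0.18 with median-ratio scaling. Under those scalings a turned sign can be a shift common to all genes. Of 39 list medians, 12 turned sign under at least 1 setting, 36 values in all. Of these values, 30 belong to 8 lists whose median lay within 0.5 of 0, such as sarcomere, intercalated disc, glycolysis, ion channel and iron genes. The other 6 values were, at 25 to 35% mitochondrial counts, other chromatin remodellers (-0.069), calcineurin signalling (-0.36) and erythroid markers (-0.70). With day 2 wells under 35% these were calcineurin signalling (-0.22) and erythroid markers (-0.57), and at 50 CPM pericyte markers (-0.13). Among single genes 2-fold or more apart, those whose sign turned at 25 to 35% included Col4a1 (-0.23), Hbb-bs (-0.86), Hba-a1 (-0.70), Hba-a2 (-0.70), Retnlg (-3.29) and S100a8 (-3.74), and those with day 2 wells under 35% were Hbb-bt (-0.44), Hbb-bs (-0.43), Hba-a1 (-0.70) and Hba-a2 (-0.74). Retnlg also turned with day 2 Ino80 at 3000 CPM or more (-0.52), with 35% or more mitochondrial counts (-0.40) and with wells of 5 other types dropped (-2.03), where S100a8 was at -0.15. None of the 27 highest and lowest genes other than Ino80 turned sign under the settings tried. These genes were chosen from the same data for their large ratios, so a turn was unlikely from the start.

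No paired analysis was possible because each group comes from 1 library and the labels give no replicates; for the same reason no leave-one-out values exist. Scaling to ERCC spike-ins was not run, since the day 2 and day 3 libraries hold 247 and 270 ERCC counts. Depth per well limits what can be said of genes under 5 CPM in single wells, and the lists leave out genes with a mean under 5 CPM.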

Other observations

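Wells between the Ino80 thresholds, which enter no comparison above, differed by day. The 51 such wells of day 3 had a median of 245 CPM of Ino80, and 51.0% of them had an Esr1 count (exact 95% interval 36.6 to 65.2). Their summed levels of Pln (521 CPM), Gja1 (185 CPM) and Nexn (2297 CPM) lay near those of day 3 Ino80-low wells (554, 210 and 2298 CPM), while Hbegf (229 CPM) and Srxn1 (89.8 CPM) lay above them (68.1 and 6.89 CPM). The 25 such wells of day 2 had a median of 862 CPM of Ino80 and 24.4% mitochondrial counts. They held 56.5 CPM of Pln, 399 CPM of Nexn and 318 CPM of Hbegf, nearer to the day 2 Ino80-high wells (97.8, 499 and 494 CPM). These are sums over few wells, chosen by the same measure, with no test.

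The antibody genes Igkc and Igha were at 327 and 56.7 CPM in day 2 Ino80-high wells, and at 0.0954 and 0.0224 CPM in day 3 Ino80-low wells. Although 1 well gave 97.8% of the Igkc counts, 51.3% of day 2 Ino80-high wells had an Igkc count, against 0.437% of day 3 Ino80-low wells. The neutrophil genes S100a8 and Retnlg were at 47.2 and 47.4 CPM in day 2 Ino80-high wells and at 12.8 and 11.4 CPM in day 3 Ino80-low wells. Wells with at least 1000 CPM of neutrophil markers numbered 4 and 2 in these groups. With wells of 5 other cell types dropped, S100a8 and Retnlg had log2 ratios of -0.15 and -2.03. A single well gave 72.9% of the S100a8 counts and 88.6% of the Retnlg counts of day 2 Ino80-high wells.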
